A study of Mus musculus with 12 samples.

Results

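Caveolae are flask-shaped pits of the plasma membrane, and the 7 genes described here encode parts of their coat together with the annexin A2 complex, another membrane scaffold, and a small membrane-spanning protein. The genes are Cav1 and Cav2, Ptrf (cavin-1), Ehd2, Anxa2, S100a10 and Tm4sf1. They were taken by symbol from a table of 50600 gene entries and were selected on their measured response to a glutamate transporter inhibitor in these same libraries. Values of that response are therefore a description, and where threshold calls are counted for them nothing is read from the counts. All 7 had a mean of at least 10 normalized counts and were among the 14266 genes tested.

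The libraries are bulk RNA-seq of neural stem cells (NSCs) cultured from the dentate gyrus (DG) of adult wild type C57Bl6J mice. At passage 4 the cells received 1 µM TFB-TBOA, which blocks the excitatory amino acid transporters (EAATs), or vehicle for 15 min, followed by 100 µM glutamate or vehicle for 48 h. The 4 groups of 3 wells were TFBTBOA-Glut (inhibitor, then glutamate), TFBTBOA-Veh (inhibitor, then vehicle), Veh-Glut (vehicle, then glutamate) and Veh-Veh (vehicle both times). Comparisons between them address which transcripts depend on transporter activity, on glutamate, or on both. All groups shared laminin-coated plates and medium with epidermal and basic fibroblast growth factors. The study derived a male and a female line, each from pooled DG, and which of them gave these libraries is not given in the sources used here. Replicates were wells of a 12-well plate and not separate animals, and every p-value rests on well-to-well spread alone, part of which may be technical. In a lysate of many cells, fewer cells of a type and less RNA per cell cannot be told apart.

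In a caveola, caveolins sit in the inner leaflet of the membrane as oligomers, cavins coat them from the cytosol, and the ATPase Ehd2 assembles around the neck and holds the pit at the surface. Caveolin-1 and cavin-1 are both needed to form caveolae outside muscle, which are abundant in endothelial cells, adipocytes and fibroblasts and buffer membrane tension and take up cargo. Annexin A2 binds acidic phospholipids in the presence of calcium and pairs with S100a10 (p11), forming a heterotetramer that links membrane to actin and, on the cell surface, binds plasminogen and its activator.

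The gene models lie on the mouse genome build GRCm38 as follows, in the GENCODE M21 annotation. Cav2 (chr6:17281185-17289115, plus strand) and Cav1 (chr6:17306335-17341452, plus strand) are neighbours, with 17219 bases between the end of Cav2 and the start of Cav1. Ptrf lies at chr11:100956733-100970887 on the minus strand, where the annotation calls it Cavin1, and Ehd2 at chr7:15946958-15967567, also on the minus strand. Anxa2 lies at chr9:69453620-69491795 on the plus strand. S100a10 (chr3:93555080-93564643, plus strand) and Tm4sf1 (chr3:57285611-57301988, minus strand) share chromosome 3. All 7 are protein-coding. The antisense gene Gm16144 shares 98 exonic bases with Anxa2 and averaged 4.75 normalized counts, and since the library kit does not mark strand, reads in that stretch cannot be told apart. Gm15581 lies antisense to Cav1 and Cav2 and shares 0 exonic bases with either.

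Promoter sequences are shown because most of the genes were higher with the inhibitor, so that their start regions can be read side by side. They come from RefSeq (GRCm38.p6), run 5′ to 3′ on the strand of the gene from 250 bases before the start site to 50 after it, and cover 6 of the 7 genes with 8 promoters. The motifs searched, on both strands, were AP-1 (TGANTCA), TEAD (GGAATG), the GC box (GGGCGG), the CArG box of serum response factor and the sterol regulatory element, and matches are in capitals. The 5 printed are those of Cav1 (upstream start, chr6:17306085-17306384, plus), Cav2 (chr6:17280935-17281234, plus), Ptrf (chr11:100970566-100970865, minus), Anxa2 (chr9:69453433-69453732, plus) and Tm4sf1 (chr3:57301939-57302238, minus).
Cav1: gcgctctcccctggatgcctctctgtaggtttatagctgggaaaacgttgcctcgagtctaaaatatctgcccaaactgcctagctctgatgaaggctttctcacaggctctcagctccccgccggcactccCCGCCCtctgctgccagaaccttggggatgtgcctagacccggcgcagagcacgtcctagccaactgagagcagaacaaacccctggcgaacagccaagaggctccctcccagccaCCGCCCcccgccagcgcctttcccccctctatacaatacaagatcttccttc
Cav2: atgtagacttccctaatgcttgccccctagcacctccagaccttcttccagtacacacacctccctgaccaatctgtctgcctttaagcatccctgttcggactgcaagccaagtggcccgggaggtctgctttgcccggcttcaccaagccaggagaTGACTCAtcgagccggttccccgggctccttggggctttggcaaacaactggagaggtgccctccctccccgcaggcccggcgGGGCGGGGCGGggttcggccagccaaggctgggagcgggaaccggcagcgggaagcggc
Ptrf: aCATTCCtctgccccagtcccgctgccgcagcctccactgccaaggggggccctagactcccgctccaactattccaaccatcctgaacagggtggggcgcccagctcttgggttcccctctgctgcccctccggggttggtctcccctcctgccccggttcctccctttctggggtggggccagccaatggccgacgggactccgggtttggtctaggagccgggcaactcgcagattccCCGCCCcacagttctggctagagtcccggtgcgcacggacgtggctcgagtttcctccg
Anxa2: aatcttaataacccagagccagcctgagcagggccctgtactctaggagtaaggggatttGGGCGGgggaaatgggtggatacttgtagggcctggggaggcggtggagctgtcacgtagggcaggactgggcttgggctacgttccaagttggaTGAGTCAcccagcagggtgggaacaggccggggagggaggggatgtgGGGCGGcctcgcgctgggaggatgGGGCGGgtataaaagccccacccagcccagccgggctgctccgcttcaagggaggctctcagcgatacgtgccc
Tm4sf1: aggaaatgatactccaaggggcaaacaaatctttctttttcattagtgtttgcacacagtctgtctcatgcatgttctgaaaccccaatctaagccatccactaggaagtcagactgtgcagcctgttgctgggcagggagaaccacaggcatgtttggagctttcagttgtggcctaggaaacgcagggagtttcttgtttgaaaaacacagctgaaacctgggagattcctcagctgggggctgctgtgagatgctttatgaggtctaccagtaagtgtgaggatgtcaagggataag

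GC boxes were the most common match, in promoters of Cav1 (its upstream start only), Cav2, Ptrf, Ehd2 and Anxa2. Over all 32851 promoters of the same length the share was 35.7%, counted per promoter and not per gene, as are the shares below. The other Cav1 promoter, not printed, held none of the motifs. In Cav2 a pair of GC boxes overlaps by a base, at -9 and -4 from the start site, and in Anxa2 there are 3, at -190, -48 and -24. The AP-1 letters were found in Cav2 (from -92) and Anxa2 (from -95), against 7.81% of all promoters, and read the same on both strands. The TEAD letters were found in Ptrf only, on the opposite strand at its far end (-249), against 14.7% of all. The Tm4sf1 window held none of the motifs, and with 47.3% G or C and 1 CpG it stood on the low side of all promoters (medians 52.7% and 7), whereas the other printed promoters held 59.3% to 67.0% and 13 to 18 CpGs. None of the members' promoters held the CArG box (1.63% of all) or the sterol element (0.234%). A match describes these letters only.

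The depth of the libraries allowed precise values for 6 of the 7 genes. Whole reads could be recovered from the normalized counts in 10 of the 12 libraries, with totals of 13064545 to 18372691. In these libraries, Anxa2 was covered by 3457 to 7651 reads and Tm4sf1 by 318 to 1054, whereas Cav1 had 0 to 80. The NSC label was checked against its markers. All 10 NSC markers were past the minimum, with means of 30991 normalized counts for Slc1a3, the glutamate transporter EAAT1, 27277 for Nes, 25201 for Fabp7 and 23136 for Vim, whereas Gfap averaged 39.6. Genes of the oligodendrocyte lineage were high as well, with means of 45116 for Olig1, 1733 for Cspg4 and 1452 for Olig2, whereas Sox10 was at 0 in 10 of the 12 libraries. Among 10 endothelial markers, Cdh5 and Cldn5 were at 0 in 10 and 11 libraries, while Kdr, Tek and Emcn were at 0 in none, with means of 15.8, 22.3 and 9.17. No gene of the 7 marker lists (29 tested, including those of neurons and glia) passed the test in any of the 4 comparisons.

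Members differed widely in abundance. Per kb of exon, the mean over the 12 libraries was 1405 normalized counts for Anxa2 (range 973 to 1813), 1278 for S100a10 (922 to 1539), 758 for Ptrf (510 to 981), 321 for Ehd2 (276 to 359), 267 for Cav2 (220 to 322), 166 for Tm4sf1 (80.5 to 254) and 11.4 for Cav1 (0 to 22.3). Over the 12 libraries pooled, neighbours in this order overlapped in range except at the steps between Ptrf and Ehd2 and between Tm4sf1 and Cav1. These ranges span the treatments. Within each group S100a10 was above Ptrf and Cav2 above Tm4sf1 without overlap. Caveolin transcript was thus mostly Cav2, and Ptrf exceeded both caveolins per kb of exon. The 7 genes together took 0.0606% to 0.105% of the normalized counts of a library.

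**Figure D1:**
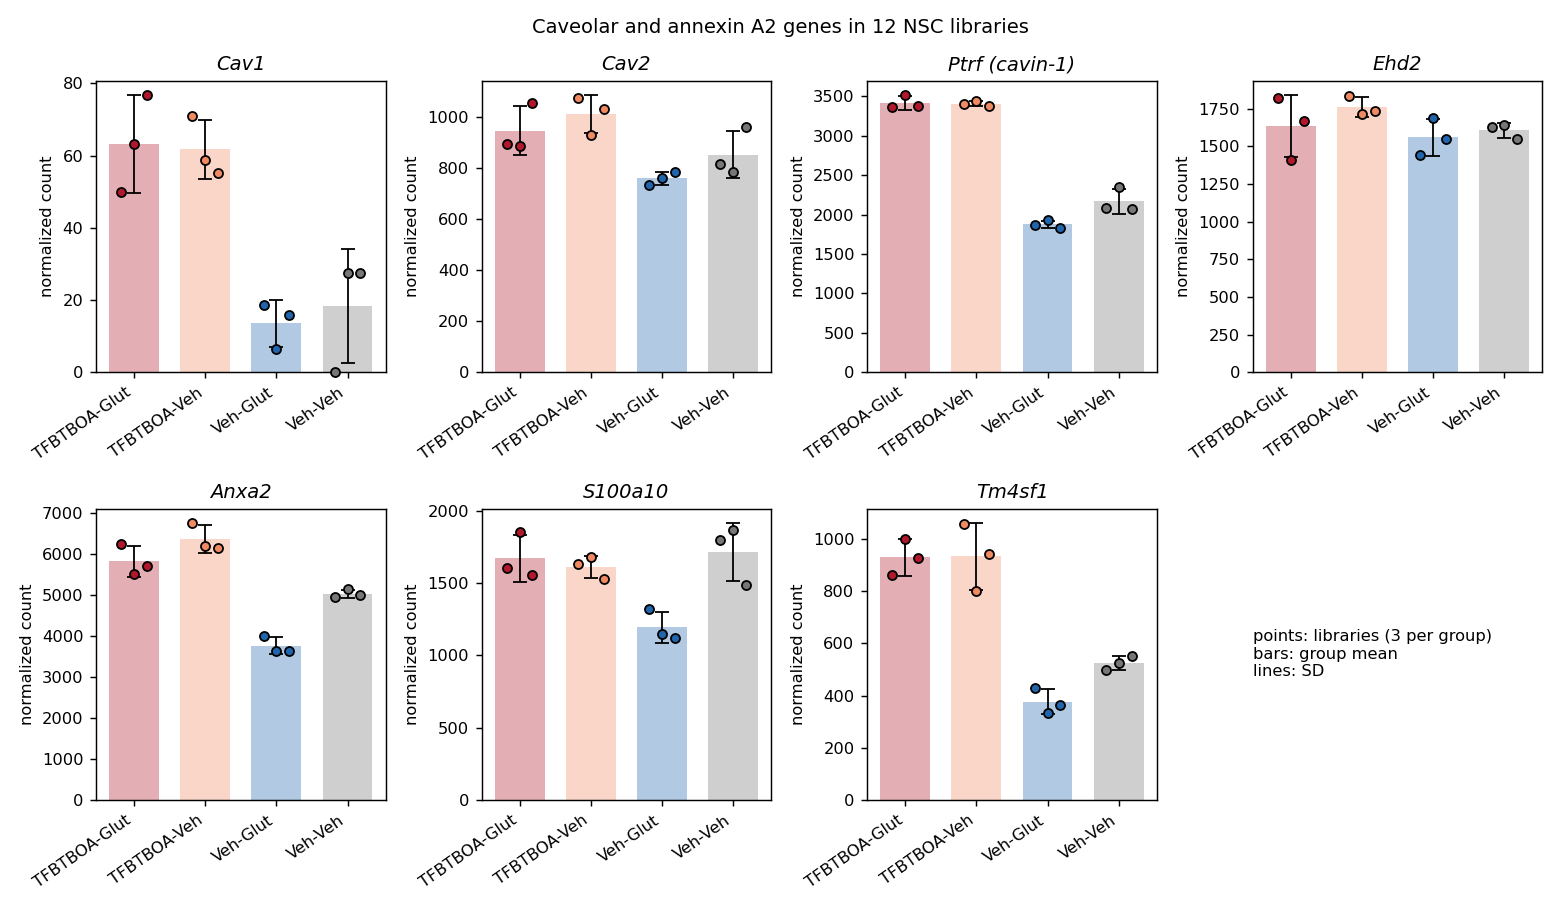
Normalized counts of the 7 genes (vertical axes) in TFBTBOA-Glut, TFBTBOA-Veh, Veh-Glut and Veh-Veh NSCs. Points are libraries, bars are group means and lines are SDs (n = 3 per group). Ptrf, Tm4sf1, Anxa2 and Cav1 lie higher in the 6 libraries with the inhibitor than in the 6 without it, while Ehd2 overlaps between most groups and S100a10 is low in Veh-Glut.

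Cav1 encodes caveolin-1, the main structural protein of the caveolar coat. It had 71.1, 58.9 and 55.3 normalized counts in TFBTBOA-Veh and 0, 27.6 and 27.4 in Veh-Veh, and 49.8, 63.1 and 76.8 in TFBTBOA-Glut against 18.7, 6.33 and 15.8 in Veh-Glut. Every library with the inhibitor was above every library without it. In reads, the Veh-Veh libraries held 0, 26 and 26, and the library without a read would allow up to 3 reads, or 2.61 normalized counts, by counting error alone. The log2 fold change was 2.74 (SE 1.01) without glutamate and 2.24 (SE 0.454) with it. On this scale the first stands for 6.69-fold, whereas the group mean was 237% higher in TFBTBOA-Veh than in Veh-Veh. Without Veh-Veh replicate 1, the library at 0, the first of these became 1.13, so its size rests on that library.

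Cav2 encodes caveolin-2, which needs caveolin-1 to reach the cell surface. Its values were 1075, 930.3 and 1030 in TFBTBOA-Veh against 815.8, 782.6 and 957.8 in Veh-Veh, and 895.2, 886.8 and 1055 in TFBTBOA-Glut against 733.6, 760.1 and 783.1 in Veh-Glut. The groups overlapped without glutamate, by 1 Veh-Veh library, and did not overlap with it. The log2 fold changes were 0.25 (SE 0.111) and 0.31 (SE 0.113).

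Ptrf, the cavin that coats all caveolae, had the narrowest spread among replicates, with a pooled SD of 0.0571 on the log2 scale. It averaged 3406 ± 31.4 in TFBTBOA-Veh and 2168 ± 155 in Veh-Veh, and 3421 ± 86.4 in TFBTBOA-Glut and 1876 ± 48.3 in Veh-Glut (SD, n = 3 each). The 6 inhibitor libraries lay between 3362 and 3520 and the other 6 between 1831 and 2346. The log2 fold change was 0.65 (SE 0.0746) without glutamate and 0.87 (SE 0.0794) with it, or 1.57-fold and 1.82-fold.

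Ehd2 differed least among the coat genes. It had 1835, 1713 and 1738 normalized counts in TFBTBOA-Veh and 1626, 1643 and 1550 in Veh-Veh, and 1821, 1412 and 1672 in TFBTBOA-Glut against 1444, 1689 and 1550 in Veh-Glut. The groups did not overlap without glutamate and overlapped with it. The log2 fold changes were 0.13 (SE 0.0798) and 0.06 (SE 0.113), with 95% intervals of -0.04 to 0.31 and -0.19 to 0.31.

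Anxa2 had the highest mean of the 7 per kb of exon. It had 6764, 6202 and 6135 normalized counts in TFBTBOA-Veh and 4948, 5139 and 4992 in Veh-Veh, and 6249, 5508 and 5699 in TFBTBOA-Glut against 4000, 3645 and 3632 in Veh-Glut. No library without the inhibitor reached the lowest with it. The log2 fold change was 0.34 (SE 0.0607) without glutamate and 0.63 (SE 0.0807) with it, or 1.27-fold and 1.55-fold.

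S100a10, its partner, did not follow Anxa2 in cells without glutamate. It had 1630, 1679 and 1527 normalized counts in TFBTBOA-Veh against 1798, 1865 and 1486 in Veh-Veh, where the groups overlapped and the log2 fold change was -0.08 (SE 0.0994). With glutamate it had 1603, 1854 and 1556 in TFBTBOA-Glut against 1319, 1149 and 1118 in Veh-Glut, with no overlap and a log2 fold change of 0.48 (SE 0.109). Veh-Glut was the group that stood apart, while the other 3 groups shared a range of 1486 to 1865.

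Tm4sf1 encodes an L6-family protein that spans the membrane 4 times and is abundant in endothelial and many tumor cells. It had 1059, 802.6 and 942.4 normalized counts in TFBTBOA-Veh and 498.9, 524.9 and 553.7 in Veh-Veh, and 860.9, 1000.4 and 927.6 in TFBTBOA-Glut against 428.2, 335.2 and 365.1 in Veh-Glut. The lowest inhibitor library was well above the highest library without the inhibitor. The log2 fold changes were 0.82 (SE 0.123) and 1.31 (SE 0.133), or 1.77-fold and 2.48-fold.

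Over the 7 genes, 3 were past the adjusted p threshold of 0.05 in limma and higher in TFBTBOA-Veh than in Veh-Veh (Ptrf, Tm4sf1 and Anxa2), a call made for 0.925% of all genes. In 5 the groups did not overlap and TFBTBOA-Veh was higher, as in 9.03% of all genes. With glutamate, 5 were past the threshold and higher in TFBTBOA-Glut than in Veh-Glut (Ptrf, Tm4sf1, Anxa2, Cav1 and S100a10; 1.23% of all genes) and 6 were higher without overlap (11.2%). Since these comparisons chose the genes, nothing is read from the counts. The median log2 fold change of the 7 was 0.34 without glutamate and 0.63 with it, beside -0.0023 and 0.0095 over all genes tested. Without TFBTBOA-Veh replicate 1, 1 gene (Ptrf) stayed past the threshold in place of 3. With glutamate, 3 stayed in place of 5 without Veh-Glut replicate 2 or 3 or TFBTBOA-Glut replicate 1 or 2.

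**Figure D2:**
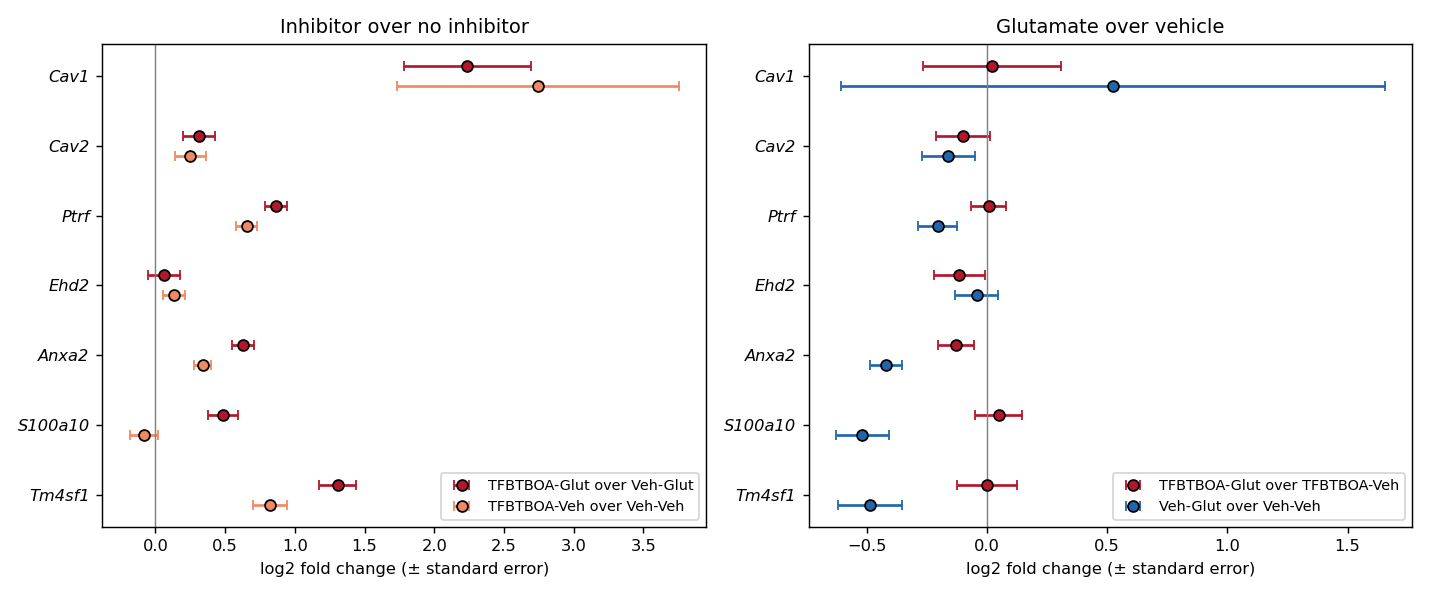
Log2 fold changes (horizontal axes) of the 7 genes with their standard errors, for the inhibitor (left; TFBTBOA-Glut over Veh-Glut and TFBTBOA-Veh over Veh-Veh) and for glutamate (right; TFBTBOA-Glut over TFBTBOA-Veh and Veh-Glut over Veh-Veh). The inhibitor values are a description. Under glutamate, Anxa2, S100a10 and Tm4sf1 lie between -0.42 and -0.52 without the inhibitor and between -0.13 and 0.05 with it.

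The response to glutamate was not used to choose the genes, although its comparisons share libraries with those that were. A choice on TFBTBOA-Glut over Veh-Glut favours low Veh-Glut values, and so a fall with glutamate here. A choice on TFBTBOA-Veh over Veh-Veh favours low Veh-Veh values, which works the other way. The p-values and shares for glutamate are therefore not independent of the choice. Without the inhibitor, Anxa2 fell to 3759 ± 209 normalized counts in Veh-Glut, against 5026 ± 99.9 in Veh-Veh (SD, n = 3 each), a log2 fold change of -0.42 (SE 0.0668, adjusted p = 0.0423 from limma over all 14266 genes). All 3 Veh-Glut libraries were below all 3 Veh-Veh libraries. It was the only one of the 7 past the threshold, which 0.0280% of all genes passed in this direction. The call was lost without Veh-Veh replicate 1, 2 or 3 or without Veh-Glut replicate 2 or 3 (adjusted p of 0.105 to 0.279), at log2 fold changes of -0.40 to -0.43. It was also lost in a fit with a block for the replicate number and in a fit without the minimum count.

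In 4 of the 7 genes every Veh-Glut library was below every Veh-Veh library, as in 6.79% of all genes. Besides Anxa2 these were S100a10, Tm4sf1 and Ptrf, and none of the 3 passed the test. S100a10 averaged 1195 ± 108 in Veh-Glut and 1716 ± 202 in Veh-Veh (log2 fold change -0.52, 95% interval -0.76 to -0.28, adjusted p = 0.136 from limma). Tm4sf1 averaged 376.2 ± 47.4 in Veh-Glut and 525.8 ± 27.4 in Veh-Veh (-0.49, interval -0.78 to -0.20, adjusted p = 0.269). Ptrf had a log2 fold change of -0.21 (interval -0.39 to -0.03, adjusted p = 0.465). Without Veh-Glut replicate 1, the highest of its group in S100a10, S100a10 passed as well (-0.59, adjusted p = 0.0335).

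The remaining coat genes showed no fall past the threshold. Cav2 had a log2 fold change of -0.16 (95% interval -0.40 to 0.08, adjusted p = 0.671 from limma) and Ehd2 of -0.04 (-0.24 to 0.15, adjusted p = 0.902). For Cav1, the group means were 13.6 ± 6.45 in Veh-Glut and 18.3 ± 15.9 in Veh-Veh, while the log2 fold change was 0.52 (-1.95 to 3.00, adjusted p = 0.907), positive through the Veh-Veh library at 0. Without that library it was -1.09, so Cav1 has no direction here. The median over the 7 was -0.21, beside 0.00 over all genes. It was -0.43 without Veh-Veh replicate 1, and -0.41 in edgeR and -0.42 in DESeq2 on recovered reads.

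With the inhibitor present, none of the 7 passed the test for glutamate (adjusted p = 1.00 for each, limma), 0 had an unadjusted p under 0.05, and in none were the groups without overlap. Over all genes the corresponding shares were 0% and 8.96%, with 537 genes at an unadjusted p under 0.05. Anxa2 averaged 5819 ± 385 in TFBTBOA-Glut and 6367 ± 346 in TFBTBOA-Veh (log2 fold change -0.13, 95% interval -0.30 to 0.03). For S100a10 the log2 fold change was 0.05 (-0.17 to 0.26) and for Tm4sf1 -0.0013 (-0.27 to 0.27). For Ptrf it was 0.0061 (-0.15 to 0.16).

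Between cells with and without the inhibitor, the glutamate effect differed by 0.57 (SE 0.148) on the log2 scale in S100a10, 0.49 (SE 0.178) in Tm4sf1, 0.29 (SE 0.0963) in Anxa2 and 0.21 (SE 0.0985) in Ptrf. In Cav2, Ehd2 and Cav1 it differed by 0.06 (SE 0.153), -0.07 (SE 0.136) and -0.50 (SE 1.29). This quantity equals the difference between the inhibitor effects on which the genes were chosen, so it is given as a description.

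The genes also differed in their ratio to each other within a library. Per kb of exon, S100a10 over Anxa2 was 0.742, 0.833 and 0.766 in TFBTBOA-Veh and 1.12, 1.12 and 0.916 in Veh-Veh, and 0.790, 1.04 and 0.840 in TFBTBOA-Glut against 1.02, 0.971 and 0.947 in Veh-Glut. S100a10 exceeded Anxa2 in 4 of the 12 libraries. TFBTBOA-Veh lay below Veh-Veh without overlap, while the groups with glutamate overlapped. Cav1 over Cav2 averaged 0.0591 ± 0.00630 in TFBTBOA-Veh and 0.0206 ± 0.0181 in Veh-Veh, and 0.0644 ± 0.00916 in TFBTBOA-Glut and 0.0174 ± 0.00848 in Veh-Glut (SD, n = 3 each). Ptrf over Cav2 averaged 3.14 ± 0.261 in TFBTBOA-Veh and 2.39 ± 0.390 in Veh-Veh, and 3.39 ± 0.368 in TFBTBOA-Glut and 2.30 ± 0.109 in Veh-Glut. The Cav1 and Ptrf ratios were higher in every library with the inhibitor.

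**Figure D3:**
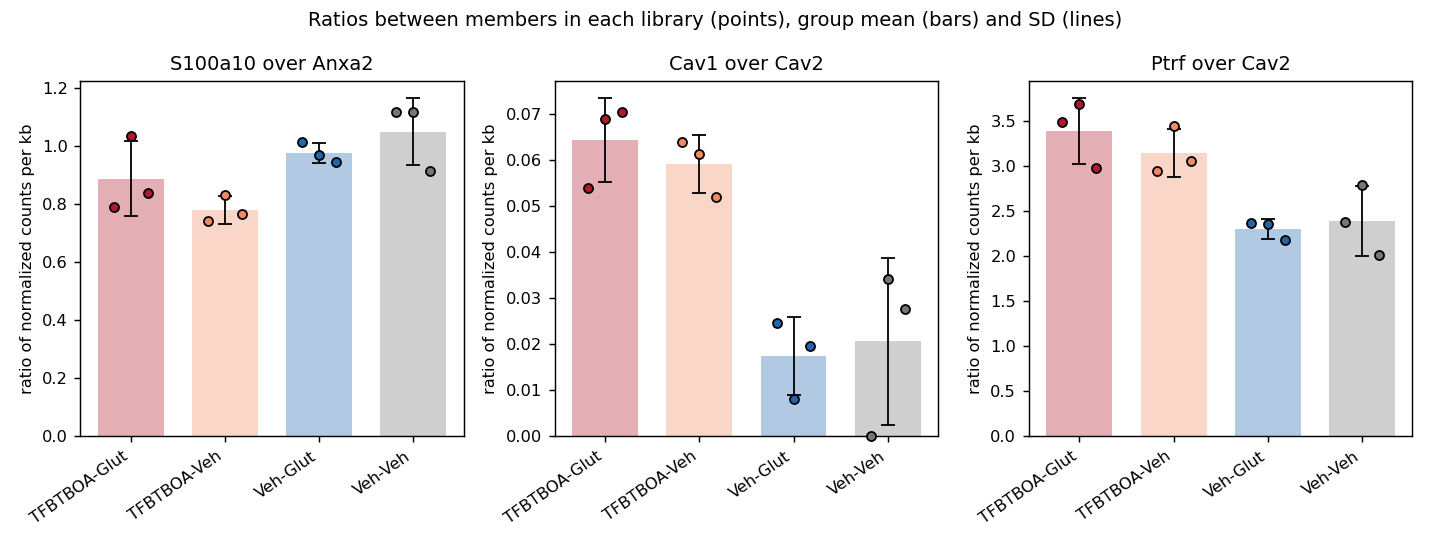
Ratios of normalized counts per kb of exon (vertical axes) for S100a10 over Anxa2, Cav1 over Cav2 and Ptrf over Cav2, in the 4 groups. Points are libraries, bars are group means and lines are SDs (n = 3 per group). S100a10 over Anxa2 was 0.742 to 0.833 in TFBTBOA-Veh and 0.916 to 1.12 in Veh-Veh.

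Across the 12 libraries, the log2 values of all 21 pairs among the 7 genes correlated with a positive sign, from r of 0.105 (Ehd2 with S100a10) to 0.961 (Ptrf with Tm4sf1), with a median of 0.608. These points share the 4 groups, and the genes were chosen on differences between those groups. After the group means were taken out, r ranged from -0.778 (Cav2 with S100a10) to 0.589 (Ptrf with S100a10), with a median of 0.122, and 11 of the 21 pairs were positive. The genes whose log2 values followed the mean of the 7 most closely over the 12 libraries were Ldhb (Pearson's r of 0.928), a lactate dehydrogenase subunit, Hrc (0.927), a calcium-binding protein of muscle, Pepd (0.923), a peptidase of proline dipeptides, Smoc2 (0.921), a matrix protein, and Heg1 (0.919), a membrane receptor known from heart and vessel development. Cav1, with a pooled SD of 1.46 on the log2 scale against 0.0571 to 0.150 for the other 6, weighs most in that mean. Veh-Veh replicate 1, with no Cav1 read, stood at -0.77 in it, against -0.03 and -0.07 for the other Veh-Veh libraries. Ldhb averaged 7688 ± 406 normalized counts in TFBTBOA-Glut, 7561 ± 377 in TFBTBOA-Veh, 5259 ± 235 in Veh-Glut and 5638 ± 420 in Veh-Veh. Hrc was scarce, at 28.3 ± 4.94 in TFBTBOA-Glut, 28.8 ± 9.92 in TFBTBOA-Veh, 6.59 ± 0.749 in Veh-Glut and 7.92 ± 6.27 in Veh-Veh.

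Relatives of the 7 genes were read from 7 lists with 47 tested genes, which like the genes themselves were drawn up with earlier results of these data known. Of these, 2 passed the test and were higher in TFBTBOA-Veh than in Veh-Veh, 5 were higher in TFBTBOA-Glut than in Veh-Glut, 0 were lower in either, and 0 passed in either glutamate comparison. Their median log2 fold change was 0.13 without glutamate and 0.15 with it. The background shares are the 0.925% and 1.23% given for the 7 genes. Since earlier results were known when the lists were made, nothing is read from these counts.

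Among other caveolar genes, 2 of 8 were higher with the inhibitor and glutamate and 1 of 8 without glutamate. Ehd4, an ATPase related to Ehd2, had 3302, 2940 and 3286 normalized counts in TFBTBOA-Veh and 2490, 2374 and 2323 in Veh-Veh, without overlap. The log2 fold change was 0.41 (SE 0.0753, adjusted p = 0.0263 from limma), and 0.46 with glutamate (SE 0.0841, adjusted p = 0.0184). Without glutamate the call was lost when any Veh-Veh library or TFBTBOA-Veh replicate 1 or 3 was left out (adjusted p of 0.0676 to 0.150), and with glutamate when Veh-Glut replicate 2 or TFBTBOA-Glut replicate 1 was (0.102 and 0.107). Sdpr, which is cavin-2, had 2011, 2083 and 1821 in TFBTBOA-Glut and 1280, 1302 and 1268 in Veh-Glut (log2 fold change 0.62, SE 0.0927, adjusted p = 0.00754, and 0.0519 without TFBTBOA-Glut replicate 1). In cells without glutamate it had a log2 fold change of 0.21 (95% interval -0.01 to 0.43, adjusted p = 0.461). Pacsin2, a membrane-bending protein with the highest mean normalized count of the list before scaling by length, had log2 fold changes of 0.13 and -0.06. The list's median was 0.17 without glutamate and 0.12 with it.

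Among the other annexins, 2 of 8 were higher with glutamate and 1 of 8 without. Anxa5, which binds phosphatidylserine, had 1750, 1484 and 1745 normalized counts in TFBTBOA-Veh and 990.8, 1033 and 1105 in Veh-Veh, with a log2 fold change of 0.67 (SE 0.0977, adjusted p = 0.00865 from limma, and 0.0586 without TFBTBOA-Veh replicate 1). It had 1791, 1587 and 1706 in TFBTBOA-Glut and 904.5, 699.0 and 961.0 in Veh-Glut, with a log2 fold change of 1.00 (SE 0.127, adjusted p = 0.00336). Anxa6, the most abundant of the list, averaged 8434 ± 31.0 in TFBTBOA-Glut and 6458 ± 316 in Veh-Glut (0.39, SE 0.0686, adjusted p = 0.0165), and lost the call without Veh-Glut replicate 2 or 3 or TFBTBOA-Glut replicate 1 (0.106, 0.0771 and 0.0895). All 8 were above 0 with glutamate and 7 of 8 without, and the list's medians were 0.36 and 0.41, beside 0.0095 and -0.0023 over all genes tested. Among them Anxa3, Anxa9 and Anxa11 were scarce, with group means of 14.2 to 31.7 normalized counts. Since the list was drawn up with earlier results known, nothing is read from these signs.

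Of the other S100 genes, 1 of 5 passed and was higher with the inhibitor and glutamate, 0 passed without glutamate, and 0 passed as lower. S100a11, a partner of annexin A1, had 1060, 1291 and 960.3 normalized counts in TFBTBOA-Glut and 662.9, 498.7 and 463.3 in Veh-Glut, with a log2 fold change of 1.03 (SE 0.157, adjusted p = 0.00801 from limma). Like S100a10 it was low in Veh-Glut, at 541.6 on average against 881.5 in Veh-Veh, which did not pass the test (-0.72, SE 0.140, adjusted p = 0.0942). S100a16, with the highest mean normalized count of the list before scaling by length, had log2 fold changes of -0.18 without glutamate and 0.05 with it, and the list's medians were 0.06 and 0.34. S100b, a calcium-binding protein of astrocytes that is named after its values were seen, had the opposite sign to most of the list. It had 82.0, 109 and 67.4 normalized counts in TFBTBOA-Veh and 146, 175 and 136 in Veh-Veh, and 58.0, 70.0 and 87.4 in TFBTBOA-Glut against 147, 125 and 133 in Veh-Glut, with no overlap in either comparison. Its log2 fold changes of -0.84 and -0.92 did not pass the test (adjusted p = 0.152 and 0.0719 from limma).

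No gene passed in the lists of flotillins (2 tested), partners of the annexin A2 complex and the plasminogen system (5), tetraspanins and L6 relatives (5) or clathrin coat genes (14), in any comparison. Plat, the tissue plasminogen activator that binds the annexin A2 complex, averaged 14757 in TFBTBOA-Veh and 14896 in Veh-Veh (log2 fold change -0.01, SE 0.0487). With glutamate it was lower without overlap, at 13863 ± 698 in TFBTBOA-Glut and 15181 ± 397 in Veh-Glut (SD, n = 3 each), and did not pass the test. Cltc, the clathrin heavy chain, had log2 fold changes of 0.17 and -0.10, Cd81 of 0.08 and 0.19, and Flot1 of 0.02 and 0.29, without and with glutamate. Ahnak, a giant scaffold that binds the annexin A2 complex, is named after its values were seen, as the point farthest right in its list. It had 19.7, 18.0 and 18.1 normalized counts in TFBTBOA-Veh and 3.48, 0 and 3.16 in Veh-Veh (log2 fold change 2.88, SE 0.805, adjusted p = 0.148), and 0, 33.3 and 16.3 in TFBTBOA-Glut against 13.7, 0 and 0 in Veh-Glut (1.78, adjusted p = 0.554).

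**Figure D4:**
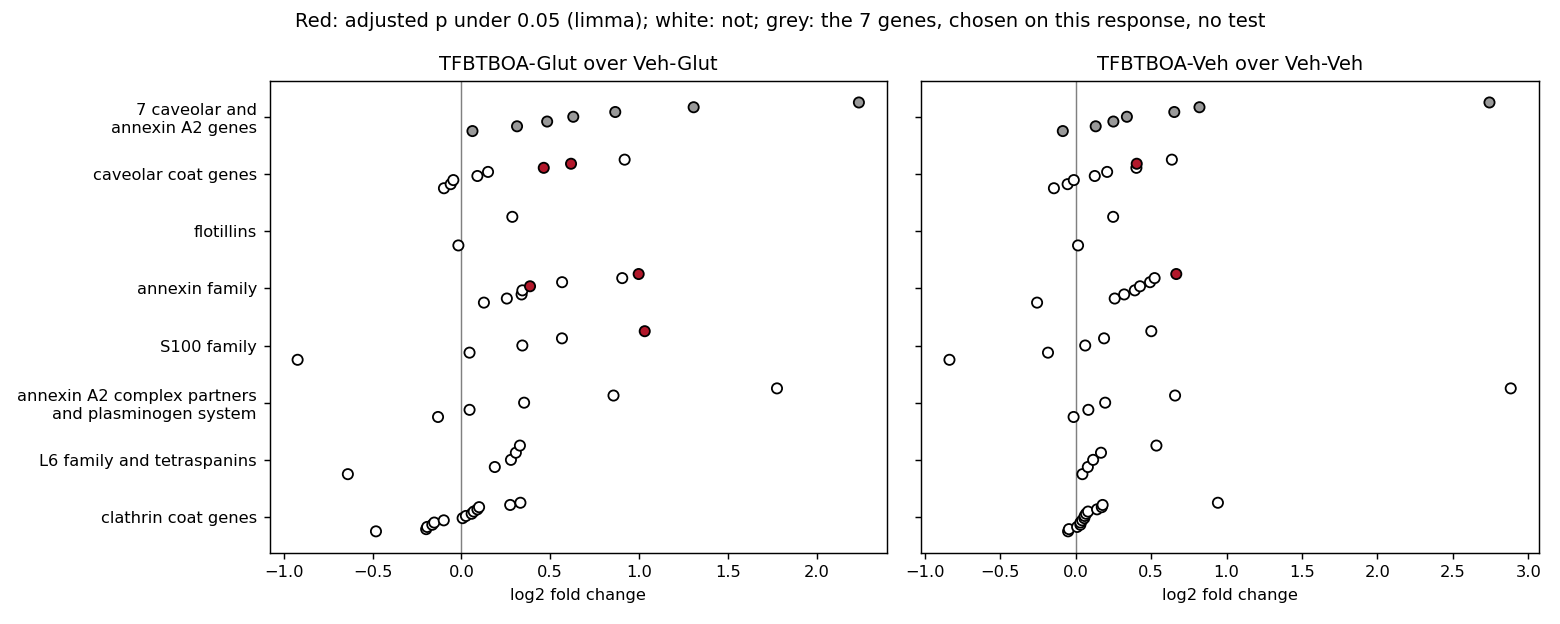
Log2 fold changes (horizontal axes) of the 7 genes (grey, no test) and of the tested genes of 7 related lists, for TFBTBOA-Glut over Veh-Glut (left) and TFBTBOA-Veh over Veh-Veh (right). Each point is a gene, red where adjusted p was under 0.05 in limma. With glutamate the red points are Ehd4, Sdpr, Anxa5, Anxa6 and S100a11, and without it Ehd4 and Anxa5.

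Markers of cell types were summed per library. The 10 endothelial markers summed to 63.4 to 106 normalized counts in TFBTBOA-Glut and 29.5 to 78.0 in Veh-Glut, and to 71.1 to 94.5 in TFBTBOA-Veh and 61.5 to 91.6 in Veh-Veh, where groups overlapped each time. The 3 of them that were tested (Kdr, Tek and Flt1) had median log2 fold changes of the same sign as the 7 genes, 0.79 and 1.20 for the inhibitor without and with glutamate and -1.12 for glutamate alone, although Flt1 was at -1.52 in the first, and none passed the test. The part of these few counts in the values of the 7 genes was not tested. The 10 fibroblast and mural markers summed to 31.7 to 84.9 in TFBTBOA-Glut, 45.3 to 56.8 in TFBTBOA-Veh, 51.9 to 62.2 in Veh-Glut and 37.1 to 66.3 in Veh-Veh. The sum of the 7 neuroblast and neuron markers, mostly Prox1, was higher with the inhibitor without overlap. It was 638 to 756 in TFBTBOA-Veh and 403 to 626 in Veh-Veh, and 579 to 709 in TFBTBOA-Glut and 465 to 545 in Veh-Glut. The 5 of these markers that were tested had median log2 fold changes of 0.60 and 0.49, with 4 above 0 in each comparison. Not all of the markers followed the sum. Neurod1, too scarce to be tested, was lower at 0.998 to 3.02 in TFBTBOA-Veh than at 13.7 to 16.5 in Veh-Veh. With glutamate it averaged 4.73 in TFBTBOA-Glut and 12.1 in Veh-Glut, with overlap. Dcx was at 0 in 7 libraries. The 7 oligodendrocyte markers, mostly Olig1, were lower at 45198 to 47864 in TFBTBOA-Veh than at 49189 to 54869 in Veh-Veh, and overlapped at 44715 to 48450 in TFBTBOA-Glut and 44287 to 50295 in Veh-Glut. The astrocyte and microglia sums overlapped between groups in both inhibitor comparisons. Whether these markers have a part in the values of the 7 genes was not tested. The 10 NSC markers summed to 112774 to 118986 in TFBTBOA-Glut against 104239 to 108019 in Veh-Glut, and to 111272 to 116607 in TFBTBOA-Veh against 111957 to 115653 in Veh-Veh. Their sum was thus lowest in Veh-Glut, the group in which Anxa2, S100a10 and Tm4sf1 were lowest as well, and its part in those values was not tested. The markers did not all follow this sum, and 3 of the 10 had a log2 fold change above 0 in Veh-Glut over Veh-Veh. Slc1a3, the most abundant of them, averaged 32276 in Veh-Glut, its highest group, and 30324 in Veh-Veh. Vim averaged 19054 in Veh-Glut and 23183 in Veh-Veh, and Nes 25374 and 28189.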

How the data were processed

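Cultured mouse DG NSCs were profiled by bulk RNA-seq in 12 libraries, 3 for each of 4 treatments, which were assigned to groups from the sample labels. The table deposited by the authors gives a signal, the normalized count of each gene entry. Reads were trimmed, cleared of ribosomal, mitochondrial and PhiX sequence, aligned with HISAT2 2.0.6, counted with featureCounts (Subread) over GENCODE M14 and divided by a size factor. Base calling used CASAVA 1.8.2 per the submitters' processing notes. These notes name GRCh38 and the methods a mouse build, GRCm38, which is used here. The methods state stranded counting, although the kit (SMART-Seq HT) does not mark strand. RNA integrity was at least 8.

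The 7 genes and all gene lists were chosen with earlier results of these data known. Log2(normalized count + 1) was fitted with limma 3.58.1 in R 4.3.3 (trended variance, two-sided, own 6 libraries per comparison) for 14266 genes, those averaging 10 or more normalized counts across all 12 libraries, and Benjamini-Hochberg adjusted p-values under 0.05 were called. On this scale the pseudocount shrinks fold changes of scarce genes, while a library near 0 can raise them above the ratio of group means. The difference between glutamate effects was fitted over all 12 libraries. Named are the 7 genes, up to 4 genes past the threshold and the one with the highest normalized count of each list, and the 5 genes closest to the mean of the 7. Ahnak, S100b and the cell type markers named were added after their values were seen. Coordinates and exonic lengths come from GENCODE M21. The limma fit was tested on simulated data.

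Normalized counts summed to 14900486 to 15411418 per library. Dividing them by the value of 1 read gave whole numbers for 100% of values (within 0.05), and reads were used for 10 libraries. TFBTBOA-Veh replicates 2 and 3 were not used as reads, since their value of 0.998 and 1.01 lies so close to 1 that low normalized counts are themselves near whole numbers. Count tests (edgeR 4.0.16 with TMM, DESeq2 1.42.0) were therefore run for 2 comparisons. Other alternatives were pseudocounts of 0.5 and 5, no filter, a minimum of 50, a single fit over 12 libraries, a block for the replicate number, scaling by TMM, and each library left out in turn.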

Additional observations from a re-analysis of the deposited data

How the results depend on the processing

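With the inhibitor and glutamate, 3 of the 7 genes passed without a filter in place of 5, and 3 to 5 when a library was left out. Without glutamate these were 1 to 3. For glutamate without the inhibitor, 0 passed without a filter (Anxa2, adjusted p = 0.0681), 2 in DESeq2 (Anxa2 and S100a10, -0.53, adjusted p = 0.00140) and 0 to 2 with a library left out. The labels number the replicates and do not say whether equal numbers belong together. The submitters' library numbers run through the 4 groups of replicate 1, then through those of replicate 2 and then of replicate 3. The 12 correlations of deviations between same-numbered libraries were weak, at -0.0405 to 0.0774. Yet in 8 of these 12 a library correlated best with its own number in the other group, so pairing by number is not excluded. With the replicate block 0 of the 7 genes passed for glutamate (Anxa2, adjusted p = 0.109). Over all genes, the block gave 4 higher and 0 lower in place of 19 and 4 for glutamate, 245 and 80 in place of 132 and 15 for the inhibitor without glutamate, and 230 and 229 in place of 175 and 136 with it. Without a filter, 115 genes were higher and 9 lower with the inhibitor alone. A minimum of 50 gave 29 higher and 10 lower for glutamate. The single fit gave 28 and 8 for glutamate and 376 and 351 for the inhibitor with glutamate. On recovered reads, edgeR called 174 and 123 genes with the inhibitor and glutamate and 19 and 4 with glutamate alone, and DESeq2 426 and 434, and 105 and 56. Without glutamate the inhibitor's counts with a library left out were 29 to 81 higher and 0 to 5 lower, with glutamate 43 to 218 and 16 to 226, and for glutamate alone 0 to 99 and 0 to 40.

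Cav1 turned negative for glutamate alone in edgeR (-0.41) and DESeq2 (-0.43), and ranged from -1.09 to 1.33 with a library left out. Its difference between glutamate effects was 1.11 without Veh-Veh replicate 1, and that of Ptrf 0.15 without Veh-Veh replicate 2. Ehd2 ranged from -0.020 to 0.16 (inhibitor with glutamate) and -0.10 to 0.011 (glutamate alone). For glutamate with the inhibitor, Tm4sf1 was 0.0017 under TMM, and with a library left out Tm4sf1 ranged from -0.11 to 0.093, Cav1 from -0.13 to 0.18, Ptrf from -0.015 to 0.018 and S100a10 from -0.028 to 0.098. The cause of these shifts was not tested. Depth limits Cav1, with at most 80 reads.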
